A study of Mus musculus with 6 samples.

Results

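The 58 genes described here make and recycle glutathione, transfer it to toxic compounds, reduce peroxides or carry the thioredoxin system. They were taken by symbol from 12393 genes with a probe set of their own on the array: the glutathione transferases (alpha, mu, pi, theta, kappa, omega and zeta classes and the microsomal Mgst genes), the Gpx, Prdx, Txn and Sod genes, and Cat, Nqo1, Hmox1, Gclc, Gclm, Gsr, Nfe2l2 and Keap1. Where a gene had several probe sets, the one with the highest mean over all 6 arrays was used. The symbol rule also brings in thioredoxin-fold proteins with other duties, such as Txnl4a, a component of the spliceosome. The samples were whole pituitary glands of male C57BL/6J mice, 8 to 12 weeks old, kept in 12 hours of light and 12 hours of darkness and killed at ZT12, when the light went off. Arrays labelled Bmal1-/- (replicates 4 to 6) were compared with arrays of wild type (replicates 1 to 3), each array carrying RNA of a separate pool of 3 glands. The submitters call the Bmal1-/- mice clock-deficient, and what part of the gene is deleted is not stated in the labels used here. Values are Affymetrix MAS5 intensities on a linear scale, n = 3 arrays per genotype throughout, and this number limits the precision.

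BMAL1, encoded by Arntl, pairs with CLOCK or NPAS2 and binds E-boxes to drive the circadian clock. NRF2, encoded by Nfe2l2, pairs with small MAF proteins at antioxidant response elements and drives many glutathione and thioredoxin genes, while KEAP1 holds NRF2 in the cytosol and marks it for degradation. Glutathione transferases attach glutathione to electrophiles, glutathione peroxidases and peroxiredoxins reduce peroxides, and thioredoxin, kept reduced by thioredoxin reductase and NADPH, restores the peroxiredoxins. In mouse lung and macrophages, Nfe2l2 has been described as a gene driven by BMAL1 through E-boxes.

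Fold changes are differences of log2(intensity + 16), arrays labelled Bmal1-/- minus wild type, which understates the change of dim genes. They were tested with limma over 13576 probe sets, the brightest 60%, and a gene was called at a Benjamini-Hochberg adjusted p under 0.05. Arrays of 1 genotype correlated at 0.98 to 0.986 and arrays of different genotypes at 0.97 to 0.976. The targeted gene, Arntl, read 112.1, 102 and 127.5 on the arrays labelled Bmal1-/- and 39.6, 51.7 and 38.6 on wild-type arrays (1.13 on the log2 scale, limma adjusted p = 0.000653). That is the opposite of a loss of signal, and since this probe set's place relative to the deletion is unknown here it checks nothing about the labels. The directions below hold for arrays as labelled. The defining pituitary hormone genes Gh, Prl and Pomc were all measured above the filter.

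The promoters of the changed genes show which of the 2 DNA elements named above lie close to the gene starts. RefSeq promoter windows of build GRCm38.p6 (250 bases before to 50 after a gene's start) were listed for 50 of the 58 genes. The core of the antioxidant response element was searched as TGACNNNGC and the E-box as CACGTG, on both strands. The 6 members that passed the test, described below, have 11 such windows. The antioxidant response element core was in 4 of these windows, 1 each for Nfe2l2, Gstm7, Mgst1 and Txnrd1, and the E-box in 0. Of all 32851 windows, 12.4% held the core and 7.15% the E-box, and counts in only 11 windows say little beside these shares. Over the whole group, 10 of 50 genes (20%) held the core and 4 (8%) the E-box, against 14% and 8.09% of all 27025 genes with a window. The windows with a match are printed 5′ to 3′ on the gene's strand, with the match in capitals, together with that of Gstt1, the member with the smallest p, which has neither. They lie at chr2:75704614-75704913 (minus strand) for Nfe2l2, chr3:107931565-107931864 (minus) for Gstm7, chr6:138140277-138140576 (plus) for Mgst1, chr10:82858956-82859255 (plus) for Txnrd1 and chr10:75797682-75797981 (minus) for Gstt1.
Nfe2l2: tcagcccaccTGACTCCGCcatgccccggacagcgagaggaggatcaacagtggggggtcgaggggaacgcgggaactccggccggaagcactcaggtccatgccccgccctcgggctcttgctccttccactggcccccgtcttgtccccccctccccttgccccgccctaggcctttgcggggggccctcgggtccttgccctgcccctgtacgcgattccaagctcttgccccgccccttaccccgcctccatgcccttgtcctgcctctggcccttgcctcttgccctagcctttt
Gstm7: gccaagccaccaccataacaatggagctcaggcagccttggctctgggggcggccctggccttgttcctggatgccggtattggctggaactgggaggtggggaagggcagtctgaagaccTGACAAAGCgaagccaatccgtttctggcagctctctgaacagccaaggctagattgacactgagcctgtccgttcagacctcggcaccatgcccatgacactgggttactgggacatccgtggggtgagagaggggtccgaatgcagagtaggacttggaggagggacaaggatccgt
Mgst1: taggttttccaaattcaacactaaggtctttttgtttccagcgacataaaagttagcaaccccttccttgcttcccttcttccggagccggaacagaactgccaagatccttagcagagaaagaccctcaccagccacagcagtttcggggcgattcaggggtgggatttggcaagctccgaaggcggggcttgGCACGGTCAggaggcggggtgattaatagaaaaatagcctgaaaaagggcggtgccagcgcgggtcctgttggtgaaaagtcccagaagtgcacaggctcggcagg
Txnrd1: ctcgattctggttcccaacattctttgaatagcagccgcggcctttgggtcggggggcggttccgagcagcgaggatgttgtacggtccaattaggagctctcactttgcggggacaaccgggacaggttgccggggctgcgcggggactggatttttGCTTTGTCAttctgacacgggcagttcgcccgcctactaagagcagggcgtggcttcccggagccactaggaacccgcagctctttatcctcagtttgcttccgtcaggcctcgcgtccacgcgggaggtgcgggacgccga
Gstt1: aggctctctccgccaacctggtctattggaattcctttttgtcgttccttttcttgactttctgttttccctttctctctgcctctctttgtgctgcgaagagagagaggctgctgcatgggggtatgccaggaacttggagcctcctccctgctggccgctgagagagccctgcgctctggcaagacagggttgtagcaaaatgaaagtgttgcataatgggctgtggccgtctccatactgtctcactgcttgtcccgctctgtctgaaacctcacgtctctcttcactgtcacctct
The match begins 240 bases before the gene start in Nfe2l2, 129 in Gstm7, 56 in Mgst1 and 92 in Txnrd1. Gstm7, Mgst1 and Txnrd1 have further windows at other start sites without a match. A match of letters is a description, not a binding site.

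Of the 58 genes, 48 passed the filter on low values, and none of these had a mean under the filter level (an intensity of 17.3) in either genotype. Nfe2l2, Gstt1, Gstm1 and Mgst1 fell and Txnrd1 and Gstm7 rose, so 6 of 48 changed (12.5%), against 5.68% of all 8033 genes tested. The 4 that fell stand beside a background of 2.68%, and the 2 that rose beside 3.00%. No change was large: the log2 fold changes ran between -0.64 and 0.53, their median was 0.03 (all genes tested: 0.00), and the median absolute value was 0.18 (all genes: 0.14). Values of the 2 genotypes were fully apart at 14 of the 48 (29.2%), against 26.4% of all genes; 10 were lower (background 12.7%) and 4 higher (13.7%). The split of the calls depended on scaling. With the median of every array made equal, 1 member fell (Gstt1) and 3 rose (Txnrd1, Gstm7 and Txn1), and over all probe sets the share of calls that were higher was 75.1% in place of 49.7%. None of the 6 fold changes altered its sign under any alternative. Equal medians, testing every probe set, and a variance estimate without the intensity trend each ended the calls of Nfe2l2, Gstm1 and Mgst1 (adjusted p between 0.0521 and 0.103).

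**Figure D1:**
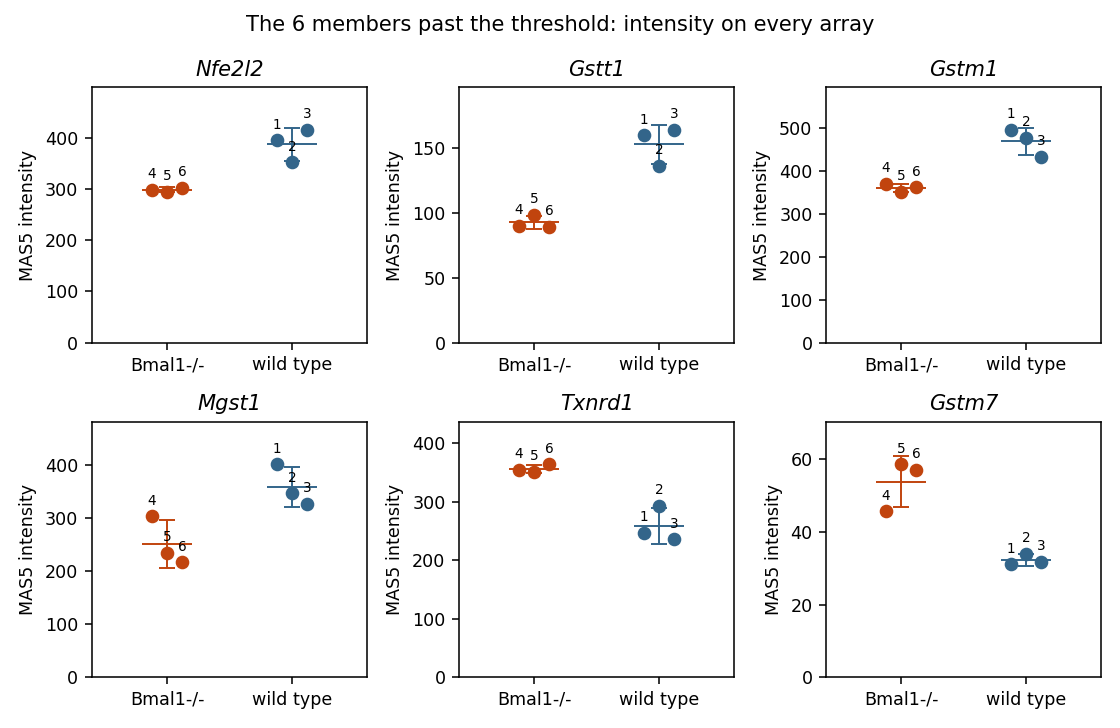
MAS5 intensity (vertical axis, linear, from 0) of the 6 members past the threshold, on arrays labelled Bmal1-/- (left, replicates 4 to 6) and wild-type arrays (right, replicates 1 to 3); points are arrays, bars the mean and SD of n = 3. The genotypes do not overlap in any panel. Mgst1 has the widest spread among the labelled arrays (216.5 to 302.8), and Nfe2l2 a narrow one (294.4 to 302.5).

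Nfe2l2, the gene of the NRF2 factor, read 298.8, 294.4 and 302.5 on the arrays labelled Bmal1-/- and 394.7, 352.1 and 415.5 on wild-type arrays. The labelled arrays lay close together and below every wild-type array. The means were 299 ± 4.06 on the labelled arrays and 387 ± 32.3 in wild type (SD), so the mean intensity fell by 22.9% (-0.36 on the log2 scale, SE 0.09, limma adjusted p = 0.0355). The call ended without any 1 array other than wild-type replicate 2 (adjusted p up to 0.131). Keap1, whose product restrains NRF2, averaged 205 ± 11.5 on the labelled arrays and 179 ± 15.6 in wild type and did not pass (0.19, 95% interval -0.03 to 0.40). The second probe set of Keap1 stood at 0.06. The difference on the same array between the brightest probe sets, Keap1 minus Nfe2l2, shifted by 0.54 and did not overlap between genotypes. That restates the changes of the 2 genes, a pair chosen after the values were seen. Its exact two-sided permutation p was 0.1, the smallest that 3 arrays against 3 allow, or 0.114 adjusted over the 8 pairs examined.

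Nqo1 and Hmox1, enzymes widely used as readouts of NRF2 activity, did not pass. Nqo1, a quinone reductase, averaged 127 ± 16.4 on the arrays labelled Bmal1-/- and 116 ± 25.5 in wild type (log2 fold change 0.13, 95% interval -0.19 to 0.46). Hmox1, which degrades haem, averaged 22.5 ± 6.18 on the labelled arrays and 34.4 ± 15 in wild type, with wild-type replicate 1 at 51 and a wide interval (-0.36, -0.82 to 0.10). The genotypes overlapped for both.

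None of the 3 genes for glutathione synthesis and recycling passed the test (limma), with the smallest adjusted p at 0.297 and none with an unadjusted p under 0.05. Beside the 5.68% of all genes called, 0 of 3 says little. Gclc and Gclm encode the catalytic and modifier subunits of glutamate-cysteine ligase, the rate-limiting enzyme of glutathione synthesis. Gclc averaged 285 ± 14.7 on the arrays labelled Bmal1-/- and 249.7 ± 22.9 in wild type (0.18, interval -0.02 to 0.39). Gclm averaged 87.3 ± 8.41 on the labelled arrays and 104 ± 17.1 in wild type (-0.21, interval -0.50 to 0.08). Gsr, the reductase that restores oxidised glutathione, averaged 77.9 ± 9.05 on the labelled arrays and 69.2 ± 8.20 in wild type (0.14, interval -0.15 to 0.43).

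Of 15 glutathione transferases above the filter, microsomal ones included, 3 fell and 1 rose (26.7%, against 5.68% of all genes). Gstt1, a theta-class enzyme that acts on small halogenated compounds, read 90.1, 98.7 and 89.5 on the arrays labelled Bmal1-/- and 159.8, 136.2 and 164 on wild-type arrays. Every labelled array was below every wild-type array. Its mean intensity fell by 39.5% (log2 fold change -0.64, SE 0.11, limma adjusted p = 0.00687), and it was the only member whose call held under all 17 alternatives run on it (adjusted p 0.00317 to 0.0383). Among the 17, leaving out probe sets ending in _x_at or _s_at could not change the call of Gstt1. Its theta-class neighbours on chromosome 10 did not pass. Gstt2 read 15.7, 41.4 and 22.5 on the labelled arrays and 38.6, 45.8 and 52 on wild-type arrays, with replicate 5 inside the wild-type range (-0.57, interval -1.02 to -0.13, adjusted p = 0.129). Without that replicate Gstt2 passed (-0.81, adjusted p = 0.0418). Gstt3 averaged 24.1 ± 5.89 on the labelled arrays and 18.1 ± 7.49 in wild type (0.25, interval -0.17 to 0.66).

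The mu class, whose 7 members here all lie on chromosome 3, held calls in opposite directions. Gstm1 read 370.1, 352 and 362 on the arrays labelled Bmal1-/- and 496, 476.7 and 433.3 on wild-type arrays. Its mean intensity fell by 22.9% (-0.36, SE 0.08, limma adjusted p = 0.0271), with no overlap. Without replicate 4, 5 or 6 or wild-type replicate 1 the call ended (adjusted p up to 0.0991), as it did with the Gstm1 probe sets averaged (-0.42, adjusted p = 0.0862). Its 3 other probe sets, which did not pass, had fold changes of -0.35, -0.54 and -0.41. Gstm7 read 45.7, 58.6 and 57.1 on the labelled arrays and 31.1, 34 and 31.7 on wild-type arrays, where the values were tight. Its mean intensity rose by 66.7% (0.53 on the log2 scale with the pseudocount, SE 0.14, limma adjusted p = 0.0483), a call that ended without any 1 of the 6 arrays (adjusted p up to 0.17), when every probe set was tested (0.117) and with a pseudocount of 1 (0.0507). Of the other mu genes, Gstm5 (0.29, interval 0.05 to 0.53), Gstm2 (0.18) and Gstm4 (0.14) did not pass, and Gstm3 and Gstm6 were under the filter. Mu-class sequences are closely related, and cross-hybridisation between them was not tested. On the same array, Gstm7 minus Gstm1 was -2.65, -2.30 and -2.37 on the labelled arrays and -3.44, -3.30 and -3.24 on wild-type arrays, as log2. The mean difference was 0.89 higher on the labelled arrays, which restates the changes of the 2 genes, a pair chosen after the values were seen.

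The other cytosolic classes did not pass. Gsta4, which clears the lipid peroxidation product 4-hydroxynonenal, averaged 90.4 ± 9.58 on the arrays labelled Bmal1-/- and 112 ± 7.45 in wild type (-0.27, adjusted p = 0.205). Gsto1 (-0.23), an omega-class enzyme with glutaredoxin-like activity, and Gstz1 (-0.23), which works in tyrosine breakdown, were also without overlap between genotypes and did not pass. The second probe set of Gsto1 stood at -0.62 (adjusted p = 0.0679). Gstp1, the pi-class enzyme, averaged 1394 ± 61.9 on the labelled arrays and 1366 ± 106 in wild type, and its interval was narrow (0.03, -0.13 to 0.19). Gstk1, found in mitochondria and peroxisomes, stood at -0.14 (interval -0.36 to 0.08). Gsta2, Gsta3 and Gstp3 were under the filter.

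Among the microsomal transferases, membrane enzymes that also reduce lipid hydroperoxides, Mgst1 read 302.8, 234.1 and 216.5 on the arrays labelled Bmal1-/- and 400.6, 346.2 and 326.6 on wild-type arrays. Replicate 4 came near the lowest wild-type array, without overlap. The mean intensity of Mgst1 fell by 29.8% (-0.49, SE 0.12, limma adjusted p = 0.0376). The call ended without replicate 5 or 6 or wild-type replicate 1 or 3 (adjusted p up to 0.128), and its other probe set was under the filter. Mgst3 averaged 135 ± 10.5 on the labelled arrays and 102 ± 23.6 in wild type and did not pass (0.37, interval 0.06 to 0.67), with wild-type replicate 2 at 129.3 inside the range of the labelled arrays. Without that array it passed (0.52, adjusted p = 0.0291). Mgst2 was under the filter.

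**Figure D2:**
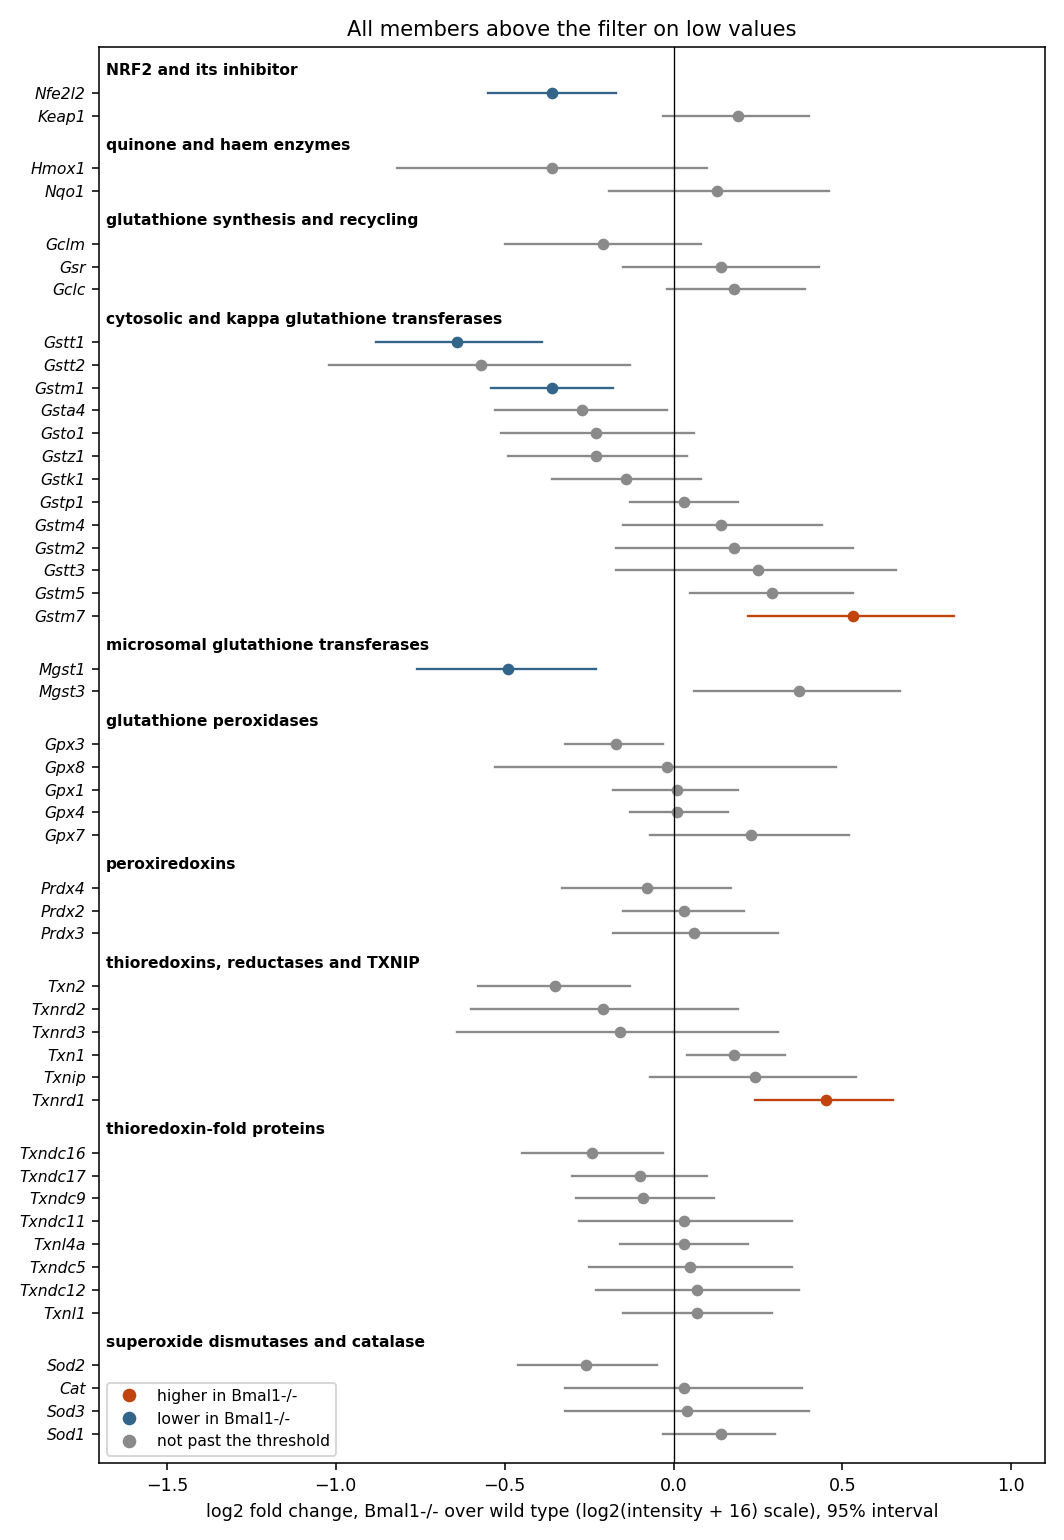
Log2 fold change (horizontal axis, arrays labelled Bmal1-/- over wild type, on the log2(intensity + 16) scale) with its 95% interval for the 48 members above the filter, grouped by role; colour marks the call. The 6 calls lie among the transferases, Nfe2l2 and Txnrd1. The glutathione peroxidases lie between -0.17 and 0.23 and the peroxiredoxins between -0.08 and 0.06, by their brightest probe sets, and none was called.

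None of 5 glutathione peroxidases, 3 peroxiredoxins, or 4 genes for superoxide dismutases and catalase passed the test (limma), with smallest adjusted p of 0.155, 0.748 and 0.138. Beside the background of 5.68%, 0 of 12 says little about these genes as a group. At an unadjusted p under 0.05 there were 2 of these, Gpx3 and Sod2, and the share of all genes at that level is not given here. Gpx1, the cytosolic peroxidase, averaged 496 ± 9.45 on the arrays labelled Bmal1-/- and 494 ± 48.1 in wild type (0.01, interval -0.18 to 0.19). Gpx4, which protects membranes from lipid peroxides, averaged 837 ± 23.9 on the labelled arrays and 829 ± 13.3 in wild type (0.01, interval -0.13 to 0.16). Gpx3, a secreted peroxidase, read 2095.6, 2291 and 2119.9 on the labelled arrays and 2329, 2428 and 2593.7 on wild-type arrays. Its genotypes did not overlap, and it missed the threshold (-0.17, adjusted p = 0.155). Gpx7 and Gpx8, of the endoplasmic reticulum, stood at 0.23 and -0.02, and Gpx2, Gpx5 and Gpx6 were under the filter.

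Prdx2, a cytosolic peroxiredoxin, averaged 927 ± 70.9 on the arrays labelled Bmal1-/- and 906 ± 72.0 in wild type (0.03, interval -0.15 to 0.21). Prdx3, its mitochondrial relative, averaged 189 ± 6.08 on the labelled arrays and 182 ± 28.7 in wild type (0.06, interval -0.18 to 0.31). For Prdx4, which acts in the endoplasmic reticulum, the probe sets differed: the brightest stood at -0.08 and the other 2 at -0.51 and -0.53, none past the threshold. With the probe sets of each gene averaged, Prdx4 passed as lower (-0.37, adjusted p = 0.0253). All 5 probe sets that name Prdx1 also name a second gene, and Prdx1, Prdx5 and Prdx6 are not analysed here.

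Sod1, the copper-zinc superoxide dismutase of the cytosol, read 902.9, 840.8 and 811.8 on the arrays labelled Bmal1-/- and 724.2, 807.5 and 784.4 on wild-type arrays (0.14, interval -0.03 to 0.30). Sod2, the manganese enzyme of mitochondria, averaged 580.5 ± 68.2 on the labelled arrays and 695 ± 54.2 in wild type (-0.26, interval -0.46 to -0.05, adjusted p = 0.138), and its 2 other probe sets stood at -0.16 and -0.21. Sod3, the extracellular enzyme, stood at 0.04 (interval -0.32 to 0.40). Cat, catalase of the peroxisome, averaged 69.4 ± 15.4 on the labelled arrays and 67.5 ± 13.0 in wild type (0.03, interval -0.32 to 0.38), with its second probe set at -0.28.

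In the thioredoxin system the cytosolic reductase rose. Txnrd1, which passes electrons of NADPH to thioredoxin, read 354.9, 350.6 and 363.8 on the arrays labelled Bmal1-/- and 246.9, 293.1 and 235.6 on wild-type arrays. The labelled arrays were tightly grouped and all above wild type. The mean intensity rose by 37.9% (0.45, SE 0.10, limma adjusted p = 0.0203). Its 2 other probe sets stood at 0.20 and 0.04, and with the 3 averaged the call was lost (0.23, adjusted p = 0.228). It was also lost without any 1 array but wild-type replicate 2 (adjusted p up to 0.0814). Txnrd2, the mitochondrial reductase, averaged 27.7 ± 7.45 on the labelled arrays and 34.5 ± 8.96 in wild type (-0.21, interval -0.60 to 0.19), and Txnrd3 stood at -0.16 (interval -0.64 to 0.31).

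Thioredoxin itself did not pass in either compartment. Txn1, the cytosolic protein, read 1063.2, 1041.8 and 1017.7 on the arrays labelled Bmal1-/- and 935.9, 925.8 and 884.7 on wild-type arrays, with no overlap (0.18, SE 0.07, adjusted p = 0.135). With equal array medians it passed (0.27, adjusted p = 0.0328). Txn2, the mitochondrial protein, read 189.4, 166.1 and 175.9 on the labelled arrays and 245.6, 204.9 and 242.6 on wild-type arrays, also with no overlap (-0.35, SE 0.10, adjusted p = 0.0666). It passed without wild-type replicate 2 (-0.43, adjusted p = 0.0326). Its probe sets did not point one way, at -0.35, -0.18 and 0.21. Txnip, which binds and inhibits thioredoxin, averaged 730.4 ± 159 on the labelled arrays and 609.8 ± 73.1 in wild type, with replicates 5 and 6 above and replicate 4 inside the wild-type range (0.24, interval -0.07 to 0.54).

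The within-array differences between cytosolic and mitochondrial partners were compared after the values were seen. Txn1 minus Txn2 averaged 2.45 ± 0.08 on the arrays labelled Bmal1-/- and 1.92 ± 0.15 in wild type. Txnrd1 minus Txnrd2 averaged 3.10 ± 0.25 on the labelled arrays and 2.45 ± 0.14 in wild type, and Sod1 minus Sod2 averaged 0.55 ± 0.09 on the labelled arrays and 0.15 ± 0.14 in wild type. None of the 3 differences overlapped between the genotypes, and each shifted toward the cytosolic gene. Each had an exact two-sided permutation p of 0.1, or 0.114 adjusted over the 8 pairs examined, so none can pass in this design. Only the brightest probe sets were paired. The other probe sets stood at -0.18 and 0.21 for Txn2, 0.20 and 0.04 for Txnrd1, and 0.08 for Txnrd2. Those of Sod1 and Sod2 stood at 0.15, and at -0.16 and -0.21. Prdx2 (0.03) and its mitochondrial relative Prdx3 (0.06) were not among the pairs.

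Of the 8 thioredoxin-fold proteins above the filter, none passed (limma, smallest adjusted p = 0.172, with 1 at an unadjusted p under 0.05), and their log2 fold changes lay between -0.24 and 0.07. Beside the 5.68% of all genes called, 0 of 8 says little. The protein nearest to a call was Txndc16, at 169.6 ± 3.23 on the arrays labelled Bmal1-/- and 203 ± 14.8 in wild type. Txndc5, a disulfide isomerase of the endoplasmic reticulum, and Txnl1, which associates with the proteasome, stood at 0.05 and 0.07. Txndc8 was under the filter. The 10 members under it read between 0.3 and 18.3 on the labelled arrays and between 0.3 and 22.4 on wild-type arrays, where MAS5 values are noisy.

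Of the 42 members that did not pass, 27 had a 95% interval lying wholly within 0.5 of 0 on the log2 scale, and 9 had an interval that did not include 0 before adjustment. These 9 were Gstm5, Mgst3 and Txn1 upward and Gpx3, Gsta4, Gstt2, Sod2, Txn2 and Txndc16 downward. Across the 28 other probe sets of these genes that could be tested, 0 passed (limma), against 5.54% of all probe sets tested (2.75% higher, 2.78% lower). Of the 28, 7 had an unadjusted p under 0.05, and 24 had the sign of the brightest. The shares of all genes with an interval that leaves out 0, and of all probe sets at that unadjusted level, are not given here. Without wild-type replicate 2, 5 of the 28 passed: the 3 of Gstm1, that of Gsto1 and 1 of Prdx4. For the genes that changed, the 5 other probe sets above the filter had the sign of the call, and all belong to Gstm1 or Txnrd1. Nfe2l2 and Gstt1 had no other probe set of their own, and those of Mgst1 and Gstm7 were under the filter. That of Gstm7 averaged 3.77 ± 4.79 on the labelled arrays and 6.03 ± 3.69 in wild type, opposite in direction to the call and in the noisy range.

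**Figure D3:**
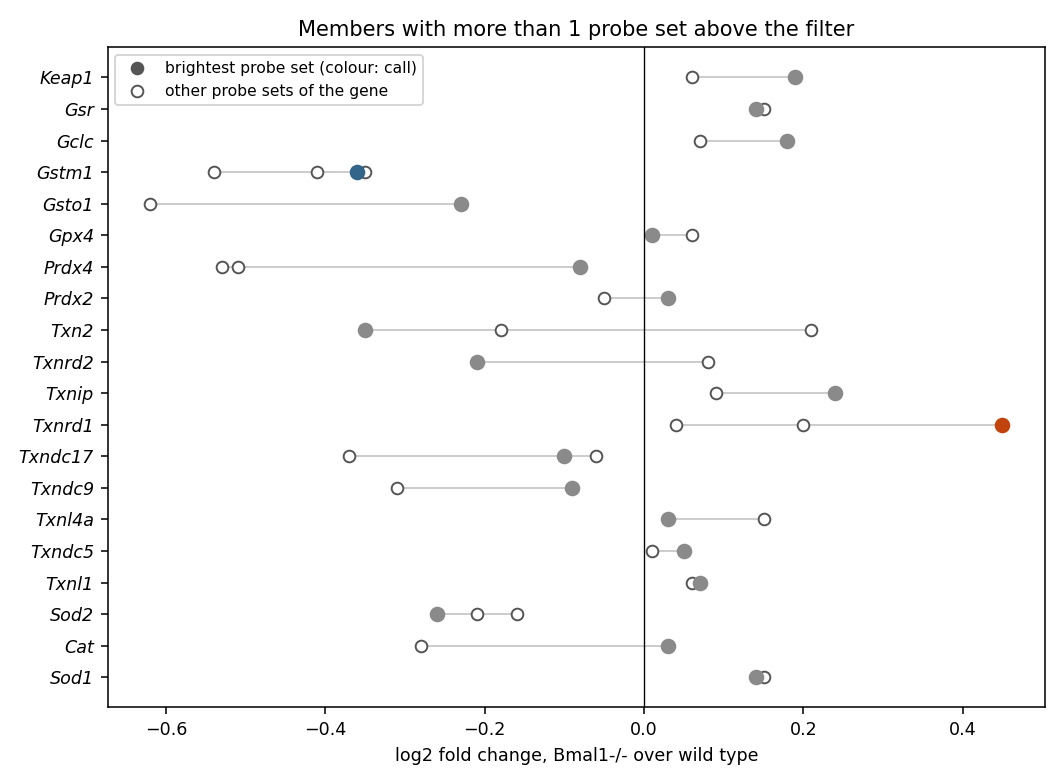
Log2 fold change (horizontal axis, arrays labelled Bmal1-/- over wild type) of every probe set above the filter for the 20 members with more than 1; filled points are the brightest probe set, coloured blue or red where it was called lower or higher, and open points the others. The Gstm1 probe sets lie together below 0, those of Txnrd1 spread from 0.04 to 0.45, and those of Txn2, Txnrd2, Prdx2 and Cat lie on both sides of 0.

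Among other genes of the same pathways, 2 that supply NADPH rose most. Of 138 genes in 9 lists, 112 had a probe set of their own, and 99 were above the filter. Of these 99, 4 rose and 1 fell (5.05%, against 5.68% of all genes), with a median log2 fold change of 0.01. Me1, cytosolic malic enzyme, which makes NADPH and is also listed among NRF2 targets, read 172, 145.5 and 159.3 on the arrays labelled Bmal1-/- and 94.6, 96 and 96.8 on wild-type arrays. Its wild-type values were nearly equal and far below the others (0.64, SE 0.11, limma adjusted p = 0.00484), and the call held under all 17 alternatives. Pgls, which carries out the lactonase step of the pentose phosphate pathway, read 135.9, 139.5 and 120.5 on the labelled arrays and 68.4, 88.5 and 77.3 on wild-type arrays (0.66, SE 0.12, adjusted p = 0.00931). Without replicate 5 it missed the threshold (adjusted p = 0.0505). These were 2 of 11 measured genes for NADPH supply (18.2%, against 5.68% of all genes), and the other 9 did not pass.

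Sesn3, a sestrin, averaged 402 ± 11.5 on the arrays labelled Bmal1-/- and 297 ± 34.5 in wild type (0.42, limma adjusted p = 0.0239), 1 of 11 genes in the list of glutaredoxins and repair enzymes. Selenom, a selenoprotein of the endoplasmic reticulum, averaged 755 ± 22.9 on the labelled arrays and 588 ± 30.3 in wild type (0.35, adjusted p = 0.0184), 1 of 13 genes for selenoproteins and their synthesis. Ggt7, a member of the gamma-glutamyltransferase family, averaged 71.1 ± 9.98 on the labelled arrays and 112 ± 12.1 in wild type and fell (-0.56, adjusted p = 0.0287), 1 of 13 genes for glutathione synthesis, breakdown and transport. The calls of Sesn3, Ggt7 and Selenom each ended without at least 3 of the 6 arrays in turn (adjusted p up to 0.0903, 0.109 and 0.0721). Each of these genes was the only call of its list (9.09%, 7.69% and 7.69% of the list), near the 5.68% of all genes.

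None of the 11 measured partners and degraders of NRF2 passed (limma, list median 0.02), nor did any of 10 sources of peroxide and superoxide (-0.09), 8 copper and metal handling genes (-0.08) or 10 peroxisome import genes (0.03). Beside the background of 5.68% of all genes called, 0 calls in lists of this size says little. At an unadjusted p under 0.05 these lists held 1, 2, 5 and 2 genes, in that order. The share of all genes at that unadjusted level is not given here. Among 16 other NRF2 target genes Me1 alone passed (6.25%, against 5.68% of all genes), and 5 had an unadjusted p under 0.05. The list median was 0.03, with 7 of the 16 below 0. Osgin1 and Slc7a11 were under the filter, and a link of this list to the fall of Nfe2l2 was not tested.

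**Figure D4:**
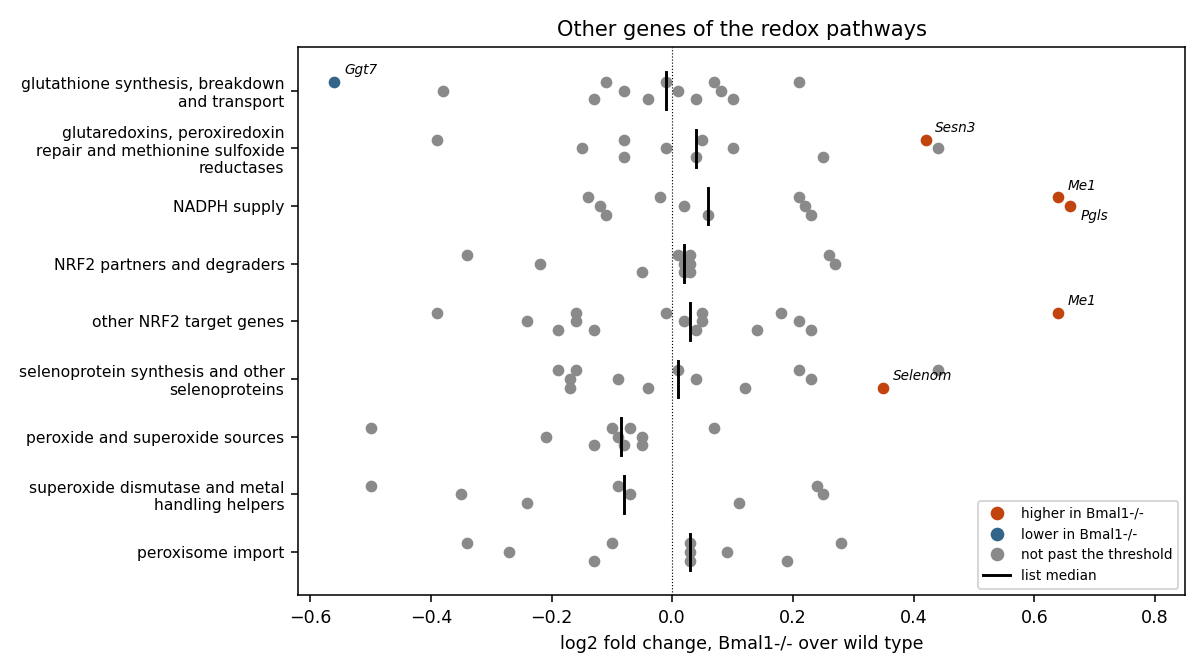
Log2 fold change (horizontal axis, arrays labelled Bmal1-/- over wild type) of the measured genes in 9 lists of related redox pathways; black bars are list medians, and named points passed the threshold. The medians lie between -0.09 and 0.06, and Me1 and Pgls are farthest to the right.

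The intensities of cell type markers were summed on each array, and the sums of 6 of 11 lists did not overlap between genotypes, all lower on the labelled arrays. By the mean of the log2 levels, 4 lists did not overlap (macrophages, pericytes and fibroblasts, somatotrophs and gonadotrophs), and 3 lists with equal array medians. The array medians were themselves lower on the labelled arrays (31.7 to 32.2) than in wild type (33.5 to 34.3). Of all single genes tested, 12.7% were fully apart and lower, and no such share for lists is given here. The 7 measured of 9 macrophage markers summed to 409 to 491 on the arrays labelled Bmal1-/- and 568 to 627 in wild type. Of these, C1qa fell (-0.48, limma adjusted p = 0.028). Lyz2 (-0.50), Csf1r (-0.43), C1qc (-0.32), C1qb (-0.22), Cd68 (-0.08) and Adgre1 (-0.04) did not pass, and Cd14 and Mrc1 were under the filter. The 8 measured of 9 pericyte and fibroblast markers summed to 1776 to 1815 on the labelled arrays and 2123 to 2227 in wild type, with Rgs5 (-0.77) and Dcn (-0.80) lower and Col1a2 (0.30) higher. Col1a1 (0.18), Pdgfrb (-0.10), Col3a1 (-0.14), Acta2 (-0.36) and Lum (-0.36) did not pass. Gh (-0.27) and Ghrhr (-0.66), the 2 measured somatotroph markers, summed to 15835 to 17129 on the labelled arrays and 18786 to 21066 in wild type, and both fell. Gonadotroph markers summed to 15252 to 15852 on the labelled arrays and 16423 to 19599.5 in wild type, thyrotroph markers to 11536 to 12932 on the labelled arrays and 13680.0 to 15530.1 in wild type, and corticotroph and melanotroph markers to 8795 to 9904 on the labelled arrays and 9958 to 11711 in wild type. Cga (-0.31), which the gonadotroph and thyrotroph lists share, fell, and no other gene of these lists passed. The sums are dominated by their brightest genes. In the thyrotroph list Tshb stood at -0.04 and Trhr at 0.12. In the gonadotroph list Lhb stood at 0.18, Nr5a1 at 0.02, Gnrhr at -0.23 and Fshb at -0.28. In the corticotroph and melanotroph list Pomc stood at -0.24, Tbx19 at -0.18 and Crhr1 at 0.12. For the folliculostellate and stem cell list, 8 of 10 were measured and the sums overlapped (1052 to 1103 on the labelled arrays and 1048 to 1428 in wild type), with S100b and Gfap under the filter. In that list Lcn2 fell (-1.53, limma adjusted p = 0.000221) and Aldh1a2 rose (0.58, adjusted p = 0.00836). Sox9 (0.19), Fxyd1 (0.12), Sox2 (0.05), Aldh1a1 (-0.12), Cryab (-0.15) and Vim (-0.30) did not pass. Endothelial sums overlapped too (760.0 to 857 on the labelled arrays and 647 to 773 in wild type), with 8 of 8 measured and Plvap (0.40) higher. Emcn (0.17), Esam (0.16), Tek (0.09), Cdh5 (0.06), Eng (-0.01), Pecam1 (-0.10) and Kdr (-0.38) did not pass. The posterior lobe and lactotroph sums also overlapped. In the posterior lobe and myelin list Mbp (0.52), a myelin gene, rose. Its other measured genes, Nefl (-0.24), Nefm (-0.51) and Oxt (-0.57), stood lower and did not pass, and Mobp, Mag, Mog and Avp were under the filter. Of 7 red blood cell markers 4 had a probe set of their own and 1 was above the filter. In RNA of whole glands, fewer cells of a type and less RNA per cell cannot be told apart, and the part of these shifts in the falls of Gstt1, Gstm1, Mgst1 and Nfe2l2 was not tested.

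**Figure D5:**
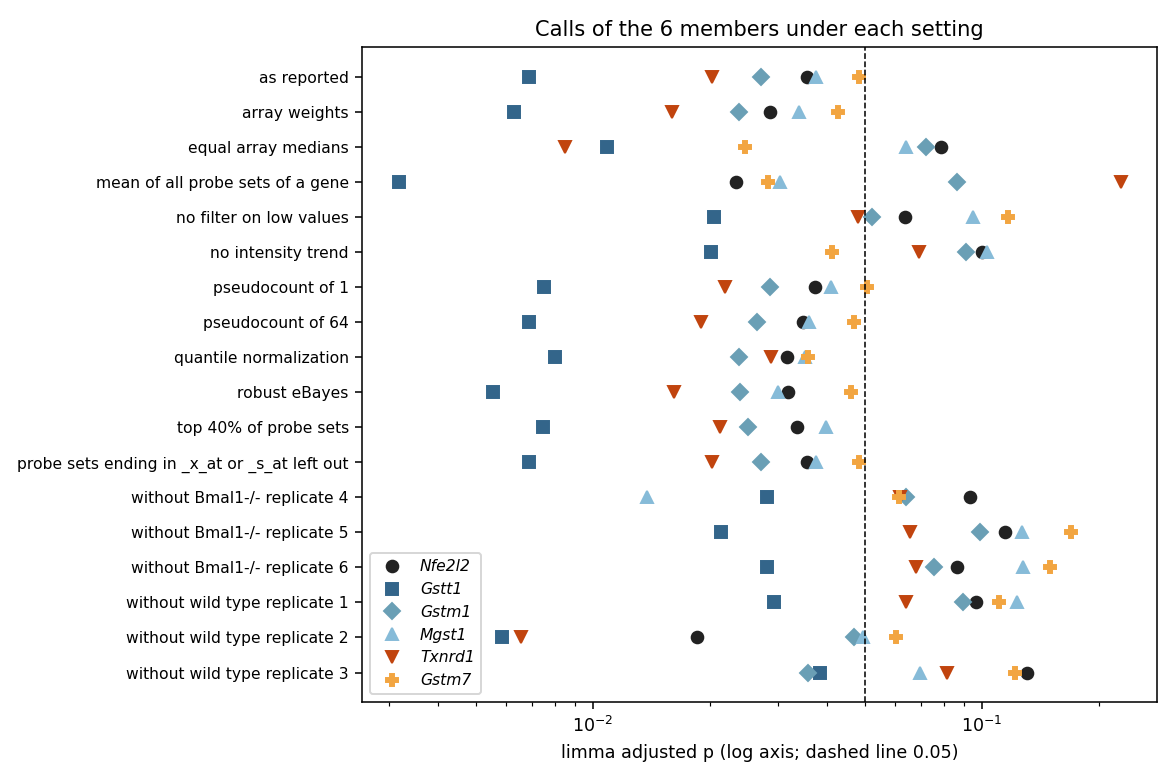
Limma adjusted p (horizontal log axis, dashed line at 0.05) of the 6 changed members under the reported setting and each alternative (rows). Gstt1 stays left of the line in every row, while the other 5 cross it in several, mostly where 1 array is left out; Gstm7 was under the stricter filter in the row for the top 40%.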

How the data were processed

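The authors made the deposited intensity values with MAS5, per the submitters' processing notes, on a linear scale. No MAS5 version is stated in the sources used here, and detection calls were not used. The mean after trimming 2% from each end was 100.0 on all 6 arrays, and no pair of arrays shared more than 0.302% of its values. Of 22690 probe sets, 64 controls were left out. Genes were named from the platform annotation, and all 58 members matched RefSeq gene IDs. Values were transformed as log2(intensity + 16), and the brightest 60% by mean level were fitted with limma 3.58.1 in R 4.3.3 (lmFit, eBayes with an intensity trend, two-sided, Benjamini-Hochberg over 13576). The procedure was tested on simulated data with independent noise and no scaling differences between arrays, which does not cover the dependence on scaling.

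Named genes are the members past the threshold, the core genes of each role, members with an adjusted p up to 0.10, the brightest member, and list genes past the threshold. Gpx7, Gpx8, Mgst3, Txnrd3, Txndc5, Txndc16, Txnl1, the marker genes and the pairs were named after their values were seen. The members and lists were chosen with earlier results of these data known. The alternatives changed the pseudocount (1 or 64), scaling (quantiles or equal medians), filter (none or the top 40%), variance model (no trend or robust), array weights, probe set choice and threshold, or left out each array in turn. Promoter sequences are RefSeq's.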

Additional observations from a re-analysis of the deposited data

How the results depend on the processing

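No paired analysis was possible because the genotypes share no replicate number. Of 48 tested members, 6 changed, 2 higher and 4 lower, with 5 list genes and 752 probe sets in all. These counts were 2 (1 and 1), 3 and 330 with no filter on low values, and 2 (1 and 1), 3 and 407 without the intensity trend. With equal array medians the members that fell numbered 1 and the list genes 8, and under averaged probe sets, a pseudocount of 1 or the top 40% the members that rose numbered 1. At an adjusted p under 0.01 there were 1 member and 233 probe sets, and under 0.10, 1403 probe sets. Leaving out each array in turn gave 1 to 7 members (0 to 2 higher, 1 to 5 lower), 1 to 6 list genes and 314 to 950 probe sets. It also gave 0 to 5 other probe sets of member genes (0 with all arrays), and 4 to 9 cell type lists whose mean log2 levels did not overlap (4 with all arrays, 9 without wild-type replicate 2). The most members and probe sets came without wild-type replicate 2, and fewer arrays also leave less power. Of the 6 calls, Gstt1 held in all 17 alternatives, Nfe2l2 and Gstm1 in 9 each, Mgst1 and Txnrd1 in 10 each, and Gstm7 in 8 of 16. These counts include leaving out probe sets ending in _x_at or _s_at. That alternative could not change the 6 calls or that of Me1, because none rests on such a probe set. No called fold change altered its sign. Signs changed 34 times, at 16 genes that were not called. The causes were not tested. Low MAS5 signal limits the 10 members under the filter.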
